A study of Homo sapiens with 14 samples.

Results

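Glycolysis and the response to low oxygen were followed through 38 genes chosen by name, with earlier results of these data known. They came from the 63677 genes listed for KYSE510, an established esophageal squamous cell carcinoma line. They were 6 oxygen sensors and subunits of the hypoxia-inducible factors (HIF), 4 glucose and lactate transporters, 17 glycolytic enzymes, 3 regulators of glycolytic flux and 8 other HIF targets. Cells were transfected with small interfering RNA (siRNA), and RNA taken at 48 h gave 12 libraries in 2 series. The EZH2 series held siEZH2-1, siEZH2-2 and the negative control siNC, and the LAT1 series held siLAT1-2, siLAT1-3 and an siNC of its own, with 2 libraries per group. EZH2 methylates histone H3 as the catalytic subunit of a Polycomb repressive complex. LAT1, encoded by SLC7A5, is a transporter of large amino acids such as leucine and methionine. All 6 groups were KYSE510 cells in RPMI-1640 medium with fetal bovine serum, transfected with a lipid reagent, and the labels name no low-oxygen treatment. The tables name no unit, and their values are taken here as FPKM, reads or fragments scaled by gene length and library depth. A gene was tested in a series where its mean over the 6 libraries was at least 1 FPKM. In the EZH2 series 34 of the 38 members passed, among 11585 genes tested, and in the LAT1 series 36 passed, among 11678. EGLN2 and ANKRD37 did not pass in either series, and EGLN3 and ALDOC did not pass in the EZH2 series.

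Glycolysis splits glucose into pyruvate in the cytosol, and many tumour cells reduce much of that pyruvate to lactate and export it even with oxygen present. HIF is a pair of an oxygen-regulated alpha subunit, HIF1A or EPAS1 (HIF-2 alpha), and a stable beta subunit, ARNT. In normal oxygen the prolyl hydroxylases EGLN1, EGLN2 and EGLN3 mark the alpha subunit, and VHL then directs it to degradation. In low oxygen the alpha subunit persists and HIF raises the transcription of glucose transporters, most glycolytic enzymes and genes such as CA9, VEGFA and BNIP3. HIF protein is controlled mainly after translation, so the RNA levels given here do not measure it.

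The promoters of 5 of the 6 members called in the same direction with siEZH2 and with siLAT1 are shown, since these calls are the ones the series shared. HIF1A (ENSG00000100644), SLC2A1 (the glucose transporter GLUT1), LDHA (the A subunit of lactate dehydrogenase) and BNIP3 (an outer mitochondrial membrane protein that promotes mitophagy) were lower. PFKL (the liver-type phosphofructokinase) was higher, as was SLC2A3, which had no promoter in the RefSeq table. The BNIP3 call with siEZH2 and the SLC2A3 call with siLAT1 did not hold with every library left out in turn. Each promoter runs from 250 bases before to 50 bases after the start of the gene, 5′ to 3′ on the strand of the gene, as RefSeq gives it on GRCh38.p14. HIF1A is on the plus strand of chromosome 14 (chr14:61695263-61695562), SLC2A1 on the minus strand of chromosome 1 (chr1:42958819-42959118), LDHA on the plus strand of chromosome 11 (chr11:18394313-18394612), BNIP3 on the minus strand of chromosome 10 (chr10:131981874-131982173) and PFKL on the plus strand of chromosome 21 (chr21:44299803-44300102). Capitals mark the core of the hypoxia response element that HIF binds, ACGTG or GCGTG, read on either strand (CACGT or CACGC in reverse), and a CACGTG counts once on each strand.
HIF1A: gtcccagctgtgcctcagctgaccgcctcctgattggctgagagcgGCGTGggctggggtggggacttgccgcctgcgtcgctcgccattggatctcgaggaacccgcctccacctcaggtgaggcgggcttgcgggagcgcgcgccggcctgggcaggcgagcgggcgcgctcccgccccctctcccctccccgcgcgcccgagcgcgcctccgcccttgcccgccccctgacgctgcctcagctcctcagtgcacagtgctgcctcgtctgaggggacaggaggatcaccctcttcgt
SLC2A1: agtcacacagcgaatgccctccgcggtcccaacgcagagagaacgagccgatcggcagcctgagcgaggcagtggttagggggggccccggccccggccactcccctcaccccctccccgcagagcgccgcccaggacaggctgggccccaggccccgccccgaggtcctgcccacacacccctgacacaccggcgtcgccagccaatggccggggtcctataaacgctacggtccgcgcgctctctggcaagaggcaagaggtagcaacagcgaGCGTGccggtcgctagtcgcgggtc
LDHA: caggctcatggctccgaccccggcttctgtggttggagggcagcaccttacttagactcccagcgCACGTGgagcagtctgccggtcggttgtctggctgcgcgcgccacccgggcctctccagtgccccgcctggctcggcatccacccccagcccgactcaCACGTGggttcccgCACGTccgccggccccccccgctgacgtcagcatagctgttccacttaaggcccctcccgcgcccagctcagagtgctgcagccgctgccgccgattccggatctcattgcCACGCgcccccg
BNIP3: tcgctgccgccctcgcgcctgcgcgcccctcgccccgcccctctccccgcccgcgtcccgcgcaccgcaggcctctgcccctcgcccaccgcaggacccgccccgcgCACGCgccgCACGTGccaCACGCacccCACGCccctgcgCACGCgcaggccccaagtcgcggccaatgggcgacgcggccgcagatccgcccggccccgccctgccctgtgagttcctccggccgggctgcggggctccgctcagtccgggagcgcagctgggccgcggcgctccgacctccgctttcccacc
PFKL: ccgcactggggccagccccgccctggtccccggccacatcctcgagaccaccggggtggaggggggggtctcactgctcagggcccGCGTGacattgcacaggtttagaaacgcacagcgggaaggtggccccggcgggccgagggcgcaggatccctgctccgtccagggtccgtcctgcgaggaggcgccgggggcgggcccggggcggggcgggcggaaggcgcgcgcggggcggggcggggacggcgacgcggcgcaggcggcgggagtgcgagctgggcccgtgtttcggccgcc

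LDHA held 5 matches to ACGTG and 1 to GCGTG, and BNIP3 held 2 and 4. HIF1A, SLC2A1 and PFKL held 1 match each, to GCGTG, in these 300 bases. Of the 38 members 32 had a promoter in the RefSeq table. ACGTG stood in 14 of these 32 (43.8%), against 27.7% of the 7653 promoters listed for genes expressed in both series and 21.6% of all 27305 promoters. GCGTG stood in 15 of the 32 (46.9%), against 52.8% of the expressed genes and 36.3% of all promoters. A match describes the letters of the window and is not evidence of binding.

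The siRNAs lowered their targets: EZH2 averaged 6.94 ± 0.43 FPKM with siEZH2-1 and 6.22 ± 0.25 with siEZH2-2, against 17.1 ± 0.035 with siNC, and SLC7A5 averaged 83.3 ± 4.16 with siLAT1-2 and 107 ± 0.32 with siLAT1-3, against 410 ± 4.39 (SD, n = 2 each). SLC7A5 also averaged 188 ± 6.25 FPKM with siEZH2-1 and 593 ± 3.73 with siEZH2-2, against 755 ± 31.3 with siNC, so the EZH2 siRNAs differed in it. Libraries of a group correlated at r = 0.993 to 0.995 across genes. Estimated depth was 21000000 to 27060000 counted reads or fragments per library in the EZH2 series and 12680000 to 16340000 in the LAT1 series. All 10 squamous epithelial markers were expressed, with sums of 1048 to 1377 FPKM per library, while the fibroblast, immune and endothelial lists summed to at most 2.55, 0.36 and 1.22 FPKM. PTPRC and PECAM1 did not exceed 0.02 FPKM in any library, but other markers on these lists did. The fibroblast marker COL1A1 ran from 0.94 to 1.47 FPKM in EZH2 libraries and from 1.62 to 2.17 in LAT1 libraries. The endothelial marker CDH5 ran from 0.97 to 1.1 FPKM in LAT1 libraries, against 0.01 to 0.03 in EZH2 libraries. Among squamous markers KRT17 averaged 26.6 FPKM over LAT1 libraries and 2.2 over EZH2 libraries, while KRT5 averaged 468 and 490. The labels do not say whether the 2 libraries of a group are separate cultures, and p-values therefore reflect a spread that may be only technical. Fewer cells of a kind and less RNA per cell cannot be told apart in bulk RNA.

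With siEZH2, 13 of the 34 members tested were called at an adjusted p under 0.05 by the mean of both siRNAs minus siNC, 3 higher and 10 lower; 30% of all 11585 genes were called in that comparison (17% higher and 13% lower). The median log2 fold change of the members was -0.05, against 0.03 over all genes. The 3 higher members were SLC2A3, PFKL and PGAM1, and the 10 lower were HIF1A, SLC2A1, SLC16A1, SLC16A3, HK2, PFKP, LDHA, PFKFB3, VEGFA and BNIP3. When each library was left out in turn, 8 of the 13 calls held every time: HIF1A, SLC2A1, SLC2A3, HK2, PFKL, PFKP, LDHA and PFKFB3. The count was 8 with no filter on low values, and 6 when siEZH2-1 and siEZH2-2 were pooled as 1 group, those 6 being HIF1A, SLC2A1, SLC16A1, HK2, PFKL and LDHA. Alone, siEZH2-1 gave 13 calls (27.2% of all genes) and siEZH2-2 gave 10 (24.8% of all genes, 13.9% higher and 10.9% lower). The siEZH2-1 count was 4 when siEZH2-1 replicate 2 or siNC replicate 1 was left out, and 8 when siNC replicate 2 was. The siEZH2-2 count was 6 without siEZH2-2 replicate 1 and 6 without siNC replicate 1, and its split of 3 higher and 7 lower was 2 and 9 when columns were rescaled to the same sum. Shares of all genes called under these alternatives are not given here. The lower counts therefore do not show whether the members lost calls more often than other genes.

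With siLAT1, 23 of the 36 members tested were called, 4 higher and 19 lower, where 34.5% of all 11678 genes were called (19.3% higher and 15.3% lower). The median log2 fold change of the members was -0.14, against 0.01 over all genes. EPAS1, VHL, SLC2A3 and PFKL were higher. The count was 9 without siNC replicate 1 and 13 without siNC replicate 2, and 8 calls held with every library left out in turn: HIF1A, VHL, EGLN3, SLC2A1, PFKL, TPI1, LDHA and BNIP3. It was 12 with no filter on low values, and 6 (HIF1A, VHL, SLC2A1, PFKL, GAPDH and LDHA) when both siRNAs were pooled as 1 group, a fit in which differences between the siRNAs add to the spread. Alone, siLAT1-2 gave 18 calls (32.5% of all genes) and siLAT1-3 gave 19 (31.4% of all genes). The siLAT1-2 count was 10 without siLAT1-2 replicate 2 and 10 without siNC replicate 1. The siLAT1-3 count was 11 without siLAT1-3 replicate 1, 9 without siNC replicate 1 and 11 without siNC replicate 2. Here too the shares of all genes called under the alternatives are not given, so the drops cannot be compared with those of other genes.

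**Figure D1:**
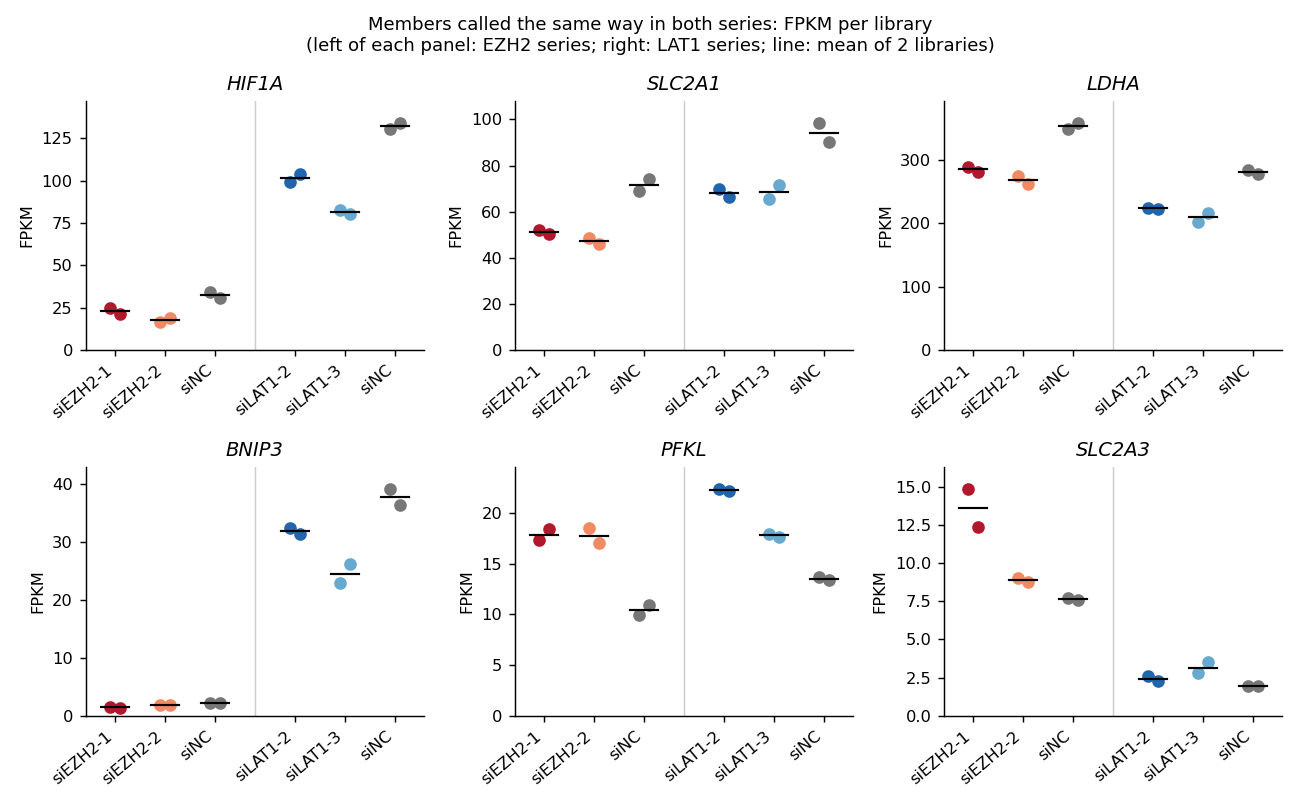
FPKM in each library (dots) and the mean of the 2 libraries of a group (short lines) for HIF1A, SLC2A1, LDHA, BNIP3, PFKL and SLC2A3, with the EZH2 series on the left and the LAT1 series on the right of each panel and each axis starting at 0. HIF1A, SLC2A1, LDHA and BNIP3 were lower and PFKL and SLC2A3 higher in every siRNA library than in the siNC libraries of its series.

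Among the HIF subunits and oxygen sensors, HIF1A fell with every siRNA. It stood at 25.0 and 21.5 FPKM with siEZH2-1 and at 16.7 and 18.8 with siEZH2-2, against 34.1 and 30.9 with siNC. All 4 siEZH2 libraries were below both siNC libraries, and siEZH2-2 was below siEZH2-1. The log2 fold change, here and throughout on the log2(FPKM + 1) scale, was -0.65 (95% interval -0.85 to -0.45, adjusted p = 0.00251) by the mean of siEZH2-1 and siEZH2-2. It was -0.46 (adjusted p = 0.0158) with siEZH2-1 and -0.84 (adjusted p = 0.00185) with siEZH2-2. The siEZH2-1 call alone was lost when siEZH2-1 replicate 2 (adjusted p = 0.087) or siNC replicate 1 (0.085) was left out. HIF1A in the LAT1 series stood at 99.2 and 104 FPKM with siLAT1-2 and at 82.4 and 80.5 with siLAT1-3, against 130.2 and 134 with siNC. The 3 groups did not overlap, and siLAT1-3 was lowest. Its log2 fold change there was -0.53 (95% interval -0.60 to -0.46, adjusted p = 4.55e-05) for the mean, -0.37 (adjusted p = 0.000317) with siLAT1-2 and -0.69 (adjusted p = 2.88e-05) with siLAT1-3. The antisense transcripts HIF1A-AS1 and HIF1A-AS2 averaged at most 0.678 FPKM, and since the strand setting is not stated, reads of overlapping genes cannot be told apart.

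EPAS1, the other alpha subunit, was not called in the EZH2 series, at 4.15 ± 0.20 FPKM with siEZH2-1 and 4.005 ± 0.16 with siEZH2-2, against 4.25 ± 0.35 with siNC. In the LAT1 series it averaged 25.1 ± 0.32 FPKM with siLAT1-2 and 20.4 ± 0.092 with siLAT1-3, against 21.1 ± 0.33 with siNC. It rose with siLAT1-2 (log2 0.24, adjusted p = 0.00186) and was not called with siLAT1-3 (log2 -0.04, adjusted p = 0.35). The call of their mean (log2 0.10, adjusted p = 0.034) was lost with any library left out (adjusted p = 0.0564 to 0.188). HIF1A made up 84.8% of the summed FPKM of HIF1A and EPAS1 with siEZH2-1 and 81.6% with siEZH2-2, against 88.4% with siNC. The share was 80.2% with siLAT1-2 and 79.9% with siLAT1-3, against 86.2% with the siNC of that series.

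VHL averaged 14.4 ± 0.13 FPKM with siLAT1-2 and 13.98 ± 0.21 with siLAT1-3, against 11.6 ± 0.18 with siNC, a rise of 0.27 on the log2 scale (adjusted p = 0.00102). It was not called in the EZH2 series (log2 0.08, 95% interval -0.13 to 0.28, adjusted p = 0.535). EGLN1, the main HIF prolyl hydroxylase in normal oxygen, was not called with siEZH2 (log2 -0.20, adjusted p = 0.08) or with siLAT1 (log2 -0.09, adjusted p = 0.199). EGLN3, itself a HIF target, stood at 5.91 and 5.28 FPKM with siLAT1-2 and at 9.51 and 11.96 with siLAT1-3, against 14.5 and 12.6 with siNC. All 4 siLAT1 libraries were below both siNC libraries, and siLAT1-2 was farthest below. EGLN3 had a log2 fold change of -1.14 (adjusted p = 0.00049) with siLAT1-2 and -0.32 (adjusted p = 0.0728) with siLAT1-3, and the difference between these siRNAs, siLAT1-3 minus siLAT1-2, was itself called (log2 0.83, adjusted p = 0.00247). The mean of both siRNAs gave -0.73 (adjusted p = 0.00164), which was no longer called with both siRNAs pooled as 1 group (adjusted p = 0.176). EGLN3 did not exceed 0.01 FPKM in any library of the EZH2 series. EGLN2 ran from 0.465 to 0.615 FPKM over the 6 group means.

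Of the transporters, SLC2A1 fell in both series. It stood at 51.9 and 50.4 FPKM with siEZH2-1 and at 48.4 and 46.1 with siEZH2-2, against 69.02 and 74.4 with siNC. All 4 siEZH2 libraries were below both siNC libraries, and siEZH2-2 was below siEZH2-1. The log2 fold change was -0.53 (95% interval -0.66 to -0.41, adjusted p = 0.000903), and it was -0.48 with siEZH2-1 and -0.59 with siEZH2-2 (adjusted p = 0.00243 and 0.00115). SLC2A1 in the LAT1 series stood at 69.9 and 66.3 FPKM with siLAT1-2 and at 65.6 and 71.7 with siLAT1-3, against 98.2 and 90.3 with siNC. The siLAT1 groups overlapped each other and neither overlapped siNC. SLC2A1 here had a log2 fold change of -0.46 (95% interval -0.58 to -0.34, adjusted p = 0.000731), and -0.46 and -0.45 with siLAT1-2 and siLAT1-3 (adjusted p = 0.00137 and 0.00162).

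SLC2A3 (GLUT3), a high-affinity glucose transporter prominent in neurons, moved in the other direction. In the EZH2 series it stood at 14.8 and 12.4 FPKM with siEZH2-1 and at 9 and 8.76 with siEZH2-2, against 7.71 and 7.58 with siNC. Every siEZH2 library was above siNC, and siEZH2-1 was farthest above. SLC2A3 had a log2 fold change of 0.75 (adjusted p = 0.00207) with siEZH2-1 and 0.19 (adjusted p = 0.159) with siEZH2-2, and the difference between them, siEZH2-2 minus siEZH2-1, was -0.56 (adjusted p = 0.00872). The mean of both siRNAs gave 0.47 (adjusted p = 0.00595), no longer called with both siRNAs pooled as 1 group (adjusted p = 0.178). In the LAT1 series its mean was 2.43 ± 0.25 FPKM with siLAT1-2 and 3.16 ± 0.51 with siLAT1-3, against 1.96 ± 0.0071 with siNC. That rise (log2 0.35, adjusted p = 0.0244) was lost without siLAT1-2 replicate 1 (adjusted p = 0.059), siNC replicate 1 (adjusted p = 0.116) or siNC replicate 2 (adjusted p = 0.119). SLC2A3 made up 21.0% of the summed FPKM of both glucose transporters with siEZH2-1 and 15.8% with siEZH2-2, against 9.65% with siNC, and 3.44% with siLAT1-2 and 4.39% with siLAT1-3, against 2.04% with siNC.

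The lactate transporters SLC16A1 (MCT1) and SLC16A3 (MCT4, the export form raised by HIF) were called lower with siEZH2. SLC16A1 averaged 45.5 ± 3.42 FPKM with siEZH2-1 and 45.9 ± 1.62 with siEZH2-2, against 56.9 ± 2.34 with siNC (log2 -0.31, adjusted p = 0.0109). Leaving out siNC replicate 1 ended this call (adjusted p = 0.0879). SLC16A3 averaged 5.95 ± 0.35 and 6.30 ± 0.73 with the same siRNAs, against 7.95 ± 1.03 with siNC (log2 -0.33, adjusted p = 0.0411). That call was lost without siEZH2-1 replicate 1 (adjusted p = 0.0597), siEZH2-1 replicate 2 (0.102), siEZH2-2 replicate 2 (0.0712) or siNC replicate 2 (0.21). SLC16A3 overlaps CSNK1D, which averaged 8.33 FPKM in the EZH2 series. With siLAT1 neither was called by the mean of both siRNAs (SLC16A1 log2 -0.06, adjusted p = 0.294, and SLC16A3 log2 -0.17, adjusted p = 0.0806). With siLAT1-2 alone SLC16A3 was called lower, at 3.13 ± 0.27 FPKM against 3.905 ± 0.049 with siNC. That call did not hold with every library left out in turn.

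The glycolytic enzymes were among the most abundant transcripts of the module. In siNC of the EZH2 series they ran from GAPDH at 1008 ± 40.6 FPKM through ENO1 at 522 ± 28.9, LDHB at 494 ± 12.8, PKM at 395 ± 20.4 and TPI1 at 384 ± 21.0 down to PFKL at 10.4 ± 0.73, with ALDOC at 0.125. ENO1 and LDHB lay within their spread of each other, and so did PKM and TPI1. With siEZH2, 5 of the 16 tested were called, 2 higher (PFKL and PGAM1) and 3 lower (HK2, PFKP and LDHA), and 4 of the 5 calls held with every library left out in turn. That is 31.2% of the 16, against 30% of all genes, so the enzymes were called about as often as other genes. The median log2 fold change of the 16 was -0.01. GAPDH, ENO1, TPI1, ALDOA, PGK1, GPI, PKM, LDHB, HK1, PFKM and ENO2 were not called by the mean of both siRNAs, with log2 fold changes between -0.13 (PKM) and 0.14 (ENO2). The 17 enzymes summed to 4074 ± 116 FPKM with siEZH2-1 and 3970 ± 164 with siEZH2-2, against 4110 ± 172 with siNC (SD, n = 2 each), and these sums overlapped. As a share of all FPKM they were 1.498% ± 0.015 with siEZH2-1 and 1.48% ± 0.016 with siEZH2-2, against 1.57% ± 0.042 with siNC, and every siEZH2 library was below both siNC libraries.

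HK2, the hexokinase bound to mitochondria in many tumours, stood at 22.7 and 19.0 FPKM with siEZH2-1 and at 20.1 and 21.1 with siEZH2-2, against 29.4 and 28.4 with siNC. The siEZH2 groups overlapped each other and lay below siNC, and the log2 fold change was -0.46 (95% interval -0.64 to -0.28, adjusted p = 0.00618). HK1, its broadly expressed isoenzyme, averaged 50.4 ± 0.45 and 45.2 ± 0.88 FPKM with siEZH2-1 and siEZH2-2, against 49.995 ± 2.11 with siNC, and was not called (log2 -0.06, adjusted p = 0.323). HK2 made up 29.2% ± 2.79 of their sum with siEZH2-1 and 31.3% ± 1.16 with siEZH2-2, against 36.6% ± 1.53 with siNC. HK2 in the LAT1 series averaged 31.6 ± 0.47 and 31.0 ± 1.06 FPKM with siLAT1-2 and siLAT1-3, against 32.0 ± 0.42 with siNC, and was not called (log2 -0.03, 95% interval -0.10 to 0.04, adjusted p = 0.461).

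Phosphofructokinase commits glucose carbon to glycolysis, and its liver (PFKL), muscle (PFKM) and platelet (PFKP) isoenzymes form tetramers. PFKL stood at 17.3 and 18.4 FPKM with siEZH2-1 and at 18.5 and 17.0 with siEZH2-2, against 9.91 and 10.9 with siNC. Every siEZH2 library was far above siNC, and the siEZH2 groups overlapped. PFKL had a log2 fold change of 0.72 (95% interval 0.57 to 0.87, adjusted p = 0.000713), with 0.72 for each siRNA alone (adjusted p = 0.00129 and 0.00128). PFKL in the LAT1 series stood at 22.4 and 22.1 FPKM with siLAT1-2 and at 18.0 and 17.7 with siLAT1-3, against 13.7 and 13.4 with siNC. The 3 groups did not overlap, with siLAT1-2 highest and siNC lowest. On the log2 scale the rise was 0.68 (adjusted p = 3.65e-05) with siLAT1-2 and 0.37 (adjusted p = 0.000369) with siLAT1-3, and 0.53 (95% interval 0.46 to 0.60, adjusted p = 4.95e-05) for their mean.

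PFKP, the most abundant of these isoenzymes, stood at 115 and 120 FPKM with siEZH2-1 and at 68.6 and 64.2 with siEZH2-2, against 107 and 115 with siNC. With siEZH2-2 it was far below siNC, and with siEZH2-1 it was not. PFKP had a log2 fold change of 0.09 (adjusted p = 0.327) with siEZH2-1 and -0.73 (adjusted p = 0.00063) with siEZH2-2, and siEZH2-2 minus siEZH2-1 was -0.82 (adjusted p = 0.000658). The call of the mean (log2 -0.32, adjusted p = 0.00652) therefore rested on siEZH2-2, and was lost with both siRNAs pooled as 1 group (adjusted p = 0.477). PFKP was not called with siLAT1 (log2 0.04, adjusted p = 0.382), nor was PFKM in either series (log2 0.02 and -0.06, adjusted p = 0.737 and 0.267). PFKL made up 11.8% ± 0.17 of the summed FPKM of the 3 isoenzymes with siEZH2-1 and 18.1% ± 0.32 with siEZH2-2, against 7.68% ± 0.17 with siNC. The share was 21.8% ± 0.41 with siLAT1-2 and 18.8% ± 0.58 with siLAT1-3, against 14.9% ± 0.28 with siNC. The sum itself was 151 ± 4.13 FPKM with siEZH2-1 and 98.2 ± 3.98 with siEZH2-2, against 136 ± 6.52 with siNC, and 102 ± 2.62 and 94.7 ± 1.84 with siLAT1-2 and siLAT1-3, against 90.8 ± 0.49 with siNC (SD, n = 2 each).

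**Figure D2:**
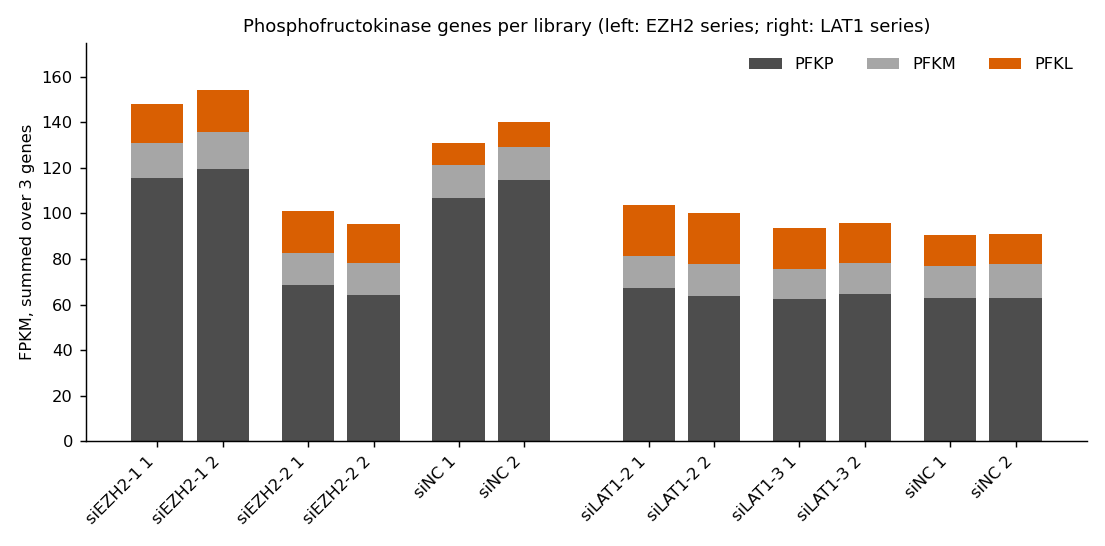
Stacked FPKM of PFKP, PFKM and PFKL in each of the 12 libraries, with the vertical axis starting at 0. The PFKL segment is taller in every siRNA library than in the siNC libraries of its series. Within the EZH2 series the PFKP segment is shortest with siEZH2-2, at 68.6 and 64.2 FPKM. It is about as short in all LAT1 libraries, siNC included, at 62.5 to 67.3 FPKM.

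LDHA favours the reduction of pyruvate to lactate, and LDHB the reverse reaction. LDHA stood at 289.5 and 282 FPKM with siEZH2-1 and at 274.5 and 262 with siEZH2-2, against 349.5 and 358 with siNC. All 4 siEZH2 libraries were below both siNC libraries. The log2 fold change was -0.35 (95% interval -0.46 to -0.25, adjusted p = 0.0024), and it was -0.31 with siEZH2-1 and -0.40 with siEZH2-2 (adjusted p = 0.00746 and 0.00291). The siEZH2-1 call alone was lost without siEZH2-1 replicate 2 (adjusted p = 0.0649). LDHA stood at 224 and 224 FPKM with siLAT1-2 and at 203 and 217 with siLAT1-3, against 285 and 278 with siNC. Again all 4 siRNA libraries were below siNC, and the log2 fold change was -0.38 (95% interval -0.45 to -0.30, adjusted p = 0.000233). LDHB was not called with siEZH2 (log2 -0.03, adjusted p = 0.644). LDHA made up 37.4% and 35.4% of the summed FPKM of LDHA and LDHB with siEZH2-1 and siEZH2-2, against 41.7% with siNC, and 36.9% and 34.4% with siLAT1-2 and siLAT1-3, against 40.1% with siNC.

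PGAM1 (phosphoglycerate mutase) was called in opposite directions in the 2 series. It averaged 323 ± 6.93 FPKM with siEZH2-1 and 285 ± 11.9 with siEZH2-2, against 262 ± 7.64 with siNC (log2 0.21, adjusted p = 0.0201), and 214 ± 5.52 with siLAT1-2 and 224 ± 1.80 with siLAT1-3, against 243 ± 5.96 with siNC (log2 -0.15, adjusted p = 0.00589). The rise was lost without siEZH2-1 replicate 2 (adjusted p = 0.0684), siNC replicate 1 (0.168) or siNC replicate 2 (0.0669). Leaving out siNC replicate 2 (adjusted p = 0.0656) or quantile normalization (0.147) ended the call of the fall. A difference between the series was not tested, since each table was normalized on its own.

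With siLAT1, 11 of the 17 enzymes were called, 1 higher (PFKL) and 10 lower (GPI, ALDOA, TPI1, GAPDH, PGK1, PGAM1, ENO1, PKM, LDHA and LDHB), and the median log2 fold change of the 17 was -0.14. That is 64.7% of the 17, which were chosen with earlier results of these data known, against 34.5% of all genes (19.3% higher and 15.3% lower). Their sum was 4058 ± 73.5 FPKM with siLAT1-2 and 3898 ± 111 with siLAT1-3, against 4472 ± 15.8 with siNC, which was 1.65% ± 0.038 and 1.57% ± 0.033 of all FPKM, against 1.77% ± 0.00027 (SD, n = 2 each). Apart from LDHA and TPI1 these falls were small, from log2 -0.09 (PKM) to -0.19 (PGK1). GAPDH, which makes 1,3-bisphosphoglycerate, averaged 1013 ± 21.4 and 1028 ± 25.1 FPKM with siLAT1-2 and siLAT1-3, against 1120.5 ± 3.70 with siNC (log2 -0.14, adjusted p = 0.00911). ENO1, which makes phosphoenolpyruvate, averaged 873 ± 24.7 and 902 ± 29.6 FPKM, against 963 ± 4.603 with siNC (log2 -0.12, adjusted p = 0.0228). By the mean of both siRNAs only PFKL, TPI1 and LDHA kept their calls with every library left out in turn. Without siNC replicate 1 the adjusted p was 0.0547 for GPI, 0.0505 for LDHB, 0.0757 for GAPDH, 0.0878 for PGK1, 0.14 for ALDOA, 0.147 for ENO1 and 0.156 for PKM. Without siNC replicate 2 it was 0.0786 for ALDOA, 0.0853 for GAPDH, 0.121 for PKM, 0.122 for ENO1 and 0.163 for LDHB. ENO1 was also lost without siLAT1-3 replicate 1 (adjusted p = 0.0504), and PKM without siLAT1-2 replicate 2 (0.0563) or siLAT1-3 replicate 1 (0.0589). After quantile normalization ALDOA, GAPDH, PGAM1, ENO1, PKM and LDHB were no longer called (adjusted p from 0.0922 for ALDOA to 0.96 for ENO1), and the log2 value of LDHB was 0.04 in place of -0.10.

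TPI1 (triosephosphate isomerase) stood at 359 and 353 FPKM with siLAT1-2 and at 177 and 193 with siLAT1-3, against 402 and 391 with siNC. With siLAT1-3 it was at 46.7% of siNC, and with siLAT1-2 at 89.7%. TPI1 had a log2 fold change of -1.09 (95% interval -1.20 to -0.99, adjusted p = 1.7e-05) with siLAT1-3 and -0.16 (adjusted p = 0.0328) with siLAT1-2, and siLAT1-3 minus siLAT1-2 was -0.94 (adjusted p = 3.1e-05). The siLAT1-2 call was lost without any of the siLAT1-2 or siNC libraries (adjusted p = 0.083 to 0.162). The mean of both siRNAs gave -0.63 (adjusted p = 6.74e-05), no longer called with both siRNAs pooled as 1 group (adjusted p = 0.267). The 4 named TPI1 pseudogenes summed to 0.764% of the FPKM of the gene in this series, and the overlapping gene SPSB2 averaged 3.01 FPKM. TPI1 in the EZH2 series was not called (log2 0.09, adjusted p = 0.33).

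ENO2, the neuronal enolase, averaged 10.9 ± 0.092 FPKM with siEZH2-1 and 14.7 ± 1.19 with siEZH2-2, against 11.4 ± 0.94 with siNC. It was called higher with siEZH2-2 (log2 0.35, adjusted p = 0.0235), a call lost without siEZH2-2 replicate 1 (adjusted p = 0.112) or siNC replicate 1 (0.125). ENO1 held at least 97.2% of the summed enolase FPKM in every group mean. ALDOC, the brain-type aldolase, averaged 9.85 ± 0.67 FPKM with siLAT1-2 and 8.01 ± 1.202 with siLAT1-3, against 10.6 ± 0.95 with siNC, and was not called by the mean (log2 -0.23, adjusted p = 0.0873). HK1 and ENO2 were not called by the mean of siLAT1 either (log2 -0.11 and -0.14, adjusted p = 0.0645 and 0.0756).

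**Figure D3:**
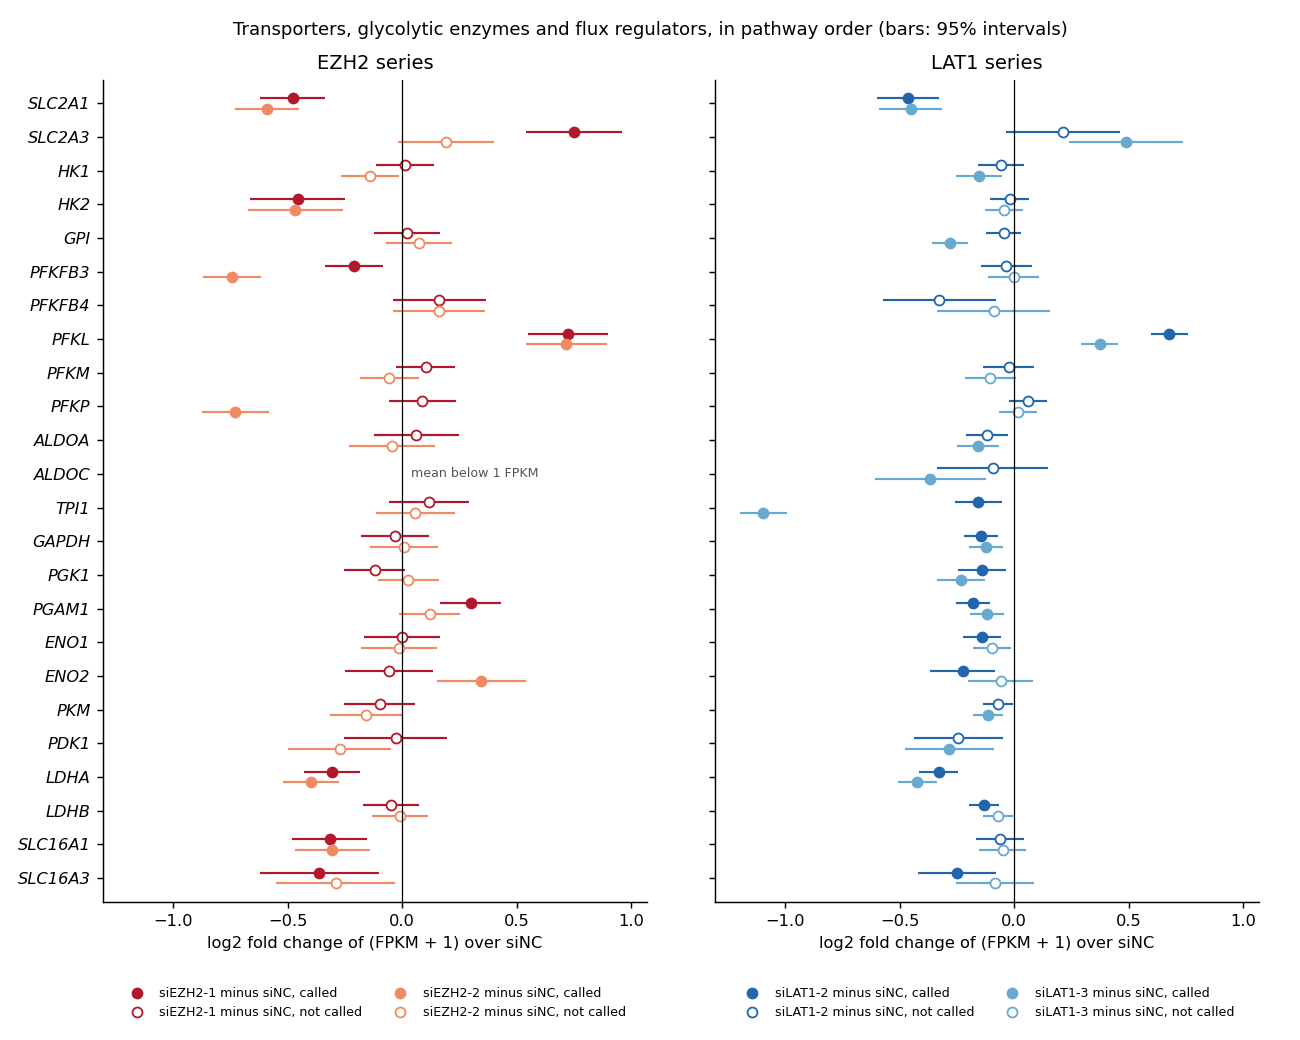
Log2 fold change of FPKM + 1 over siNC (horizontal axis) with its 95% interval for each siRNA and each transporter, glycolytic enzyme and flux regulator, in the order of the pathway, with the EZH2 series on the left and the LAT1 series on the right. Filled points were called at an adjusted p under 0.05 and open points were not. PFKL stands right of 0 with all 4 siRNAs, PFKP far left of 0 with siEZH2-2 (-0.73) and not with siEZH2-1, and TPI1 far left of 0 with siLAT1-3 (-1.09).

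PFKFB3 makes fructose 2,6-bisphosphate, the main activator of phosphofructokinase. It stood at 15.1 and 14.8 FPKM with siEZH2-1 and at 9.96 and 10.1 with siEZH2-2, against 17.5 and 17.4 with siNC. The 3 groups did not overlap, with siEZH2-2 lowest. PFKFB3 had a log2 fold change of -0.21 (adjusted p = 0.0287) with siEZH2-1 and -0.74 (adjusted p = 0.000363) with siEZH2-2, and siEZH2-2 minus siEZH2-1 was -0.53 (adjusted p = 0.0017). The siEZH2-1 call was lost without any of the siEZH2-1 or siNC libraries (adjusted p = 0.0993 to 0.16). The mean of both siRNAs gave -0.48 (adjusted p = 0.000919), no longer called with both siRNAs pooled as 1 group (adjusted p = 0.144). With siLAT1 PFKFB3 was not called (log2 -0.02, 95% interval -0.12 to 0.08, adjusted p = 0.757).

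PFKFB4, its lower isoenzyme in these cells, and PDK1, the kinase that turns off pyruvate dehydrogenase, were not called with siEZH2 (log2 0.16 and -0.15, adjusted p = 0.141 and 0.204). With siLAT1 PFKFB4 was not called (log2 -0.21, adjusted p = 0.119). PDK1 averaged 2.02 ± 0.11 and 1.95 ± 0.13 FPKM with siLAT1-2 and siLAT1-3, against 2.58 ± 0.15 with siNC, and fell (log2 -0.26, adjusted p = 0.0276). That call was lost without siLAT1-2 replicate 2 (adjusted p = 0.0666), siLAT1-3 replicate 1 (0.0623), siNC replicate 1 (0.172) or siNC replicate 2 (0.0821).

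Of the 8 other HIF targets 7 were tested in each series. By the mean of both siRNAs 2 with siEZH2 and 5 with siLAT1 were called, all lower. The 2 are 28.6% of the 7, against 30% of all genes called with siEZH2 (13% lower), and the 5 are 71.4%, against 34.5% with siLAT1 (15.3% lower). These targets too were chosen with earlier results of these data known. With every library left out in turn, 0 of the 2 calls held with siEZH2 and 1 of the 5 with siLAT1 (BNIP3), with no such share of all genes given here. The median log2 fold change of the 7 was -0.09 with siEZH2 and -0.34 with siLAT1. BNIP3 fell in both series and was far more abundant in the LAT1 series. It stood at 32.4 and 31.4 FPKM with siLAT1-2 and at 22.8 and 26.2 with siLAT1-3, against 39.1 and 36.3 with siNC. The 3 groups did not overlap, with siLAT1-3 lowest. BNIP3 had a log2 fold change of -0.23 (adjusted p = 0.0367) with siLAT1-2, -0.60 (adjusted p = 0.000943) with siLAT1-3 and -0.42 (adjusted p = 0.00205) for their mean. The mean was no longer called with both siRNAs pooled as 1 group (adjusted p = 0.115), and the siLAT1-2 call was lost without either library of siLAT1-2 or siNC (adjusted p = 0.0657 to 0.184). The overlapping gene PPP2R2D averaged 7.38 FPKM in that series. With siEZH2 BNIP3 averaged 1.48 ± 0.18 and 1.90 ± 0.014 FPKM, against 2.23 ± 0.057 with siNC (log2 -0.27, adjusted p = 0.0422). That call was lost without siEZH2-1 replicate 2 (adjusted p = 0.108), siEZH2-2 replicate 1 (0.0858), siEZH2-2 replicate 2 (0.0718), siNC replicate 1 (0.22) or siNC replicate 2 (0.133), and PPP2R2D, at 8.51 FPKM there, was the more abundant of the pair.

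CA9, a cell-surface carbonic anhydrase widely used as a marker of hypoxia, stood at 8.05 and 5.92 FPKM with siLAT1-2 and at 5.00 and 7.11 with siLAT1-3, against 11.8 and 9.74 with siNC. All 4 siLAT1 libraries were below both siNC libraries and the siLAT1 groups overlapped. By the mean of both siRNAs its log2 fold change was -0.66 (95% interval -1.02 to -0.29, adjusted p = 0.0171), lost without siNC replicate 1 (adjusted p = 0.132) or siNC replicate 2 (0.0516). With siEZH2 CA9 was not called (log2 0.00, 95% interval -0.26 to 0.26, adjusted p = 0.998).

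NDRG1, a stress-responsive gene that hypoxia raises, stood at 13.1 and 11.5 FPKM with siLAT1-2 and at 13.6 and 17.9 with siLAT1-3, against 27.2 and 17.5 with siNC. One siLAT1-3 library stood above one siNC library, so the groups overlapped. By the mean its log2 fold change was -0.62 (adjusted p = 0.0341), lost without siLAT1-2 replicate 1 (adjusted p = 0.0537), siLAT1-2 replicate 2 (0.0767), siLAT1-3 replicate 1 (0.0778) or siNC replicate 1 (0.19). With siEZH2-2 NDRG1 averaged 32.6 ± 3.92 FPKM and with siEZH2-1 22.1 ± 3.75, against 22.8 ± 2.62 with siNC. It was higher with siEZH2-2 (log2 0.50, adjusted p = 0.0427), a call lost without siEZH2-2 replicate 1 (adjusted p = 0.171), siNC replicate 1 (0.182) or siNC replicate 2 (0.0531), and was not called by the mean (log2 0.22, adjusted p = 0.202).

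P4HA1, a collagen prolyl hydroxylase, averaged 11.2 ± 0.96 FPKM with siLAT1-2 and 13.9 ± 0.95 with siLAT1-3, against 16.015 ± 0.47 with siNC (log2 -0.34, adjusted p = 0.00513), a fall lost without siNC replicate 1 (adjusted p = 0.0525). BNIP3L, the mitophagy receptor related to BNIP3, averaged 25.2 ± 0.96 and 22.6 ± 0.18 FPKM, against 28.8 ± 3.25 with siNC (log2 -0.25, adjusted p = 0.019), also lost without siNC replicate 1 (adjusted p = 0.0831). Neither was called with siEZH2 (log2 -0.09 and -0.27, adjusted p = 0.45 and 0.0921). VEGFA, the angiogenic growth factor, was low: 1.41 ± 0.035 FPKM with siEZH2-1 and 1.71 ± 0.042 with siEZH2-2, against 2.08 ± 0.035 with siNC. Its fall of log2 -0.27 (adjusted p = 0.0295) was lost with any library left out (adjusted p = 0.0585 to 0.151). With siLAT1 VEGFA was not called (log2 0.14, adjusted p = 0.131). ADM, the vasodilator peptide adrenomedullin, was not called by the mean in either series (log2 0.05 in both, adjusted p = 0.467 and 0.522). With siEZH2-1 alone ADM was called higher, at 18.7 ± 0.27 FPKM against 15.95 ± 0.51 with siNC. That call did not hold with every library left out in turn. ANKRD37 ran from 0.23 to 0.54 FPKM over the 6 group means.

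**Figure D4:**
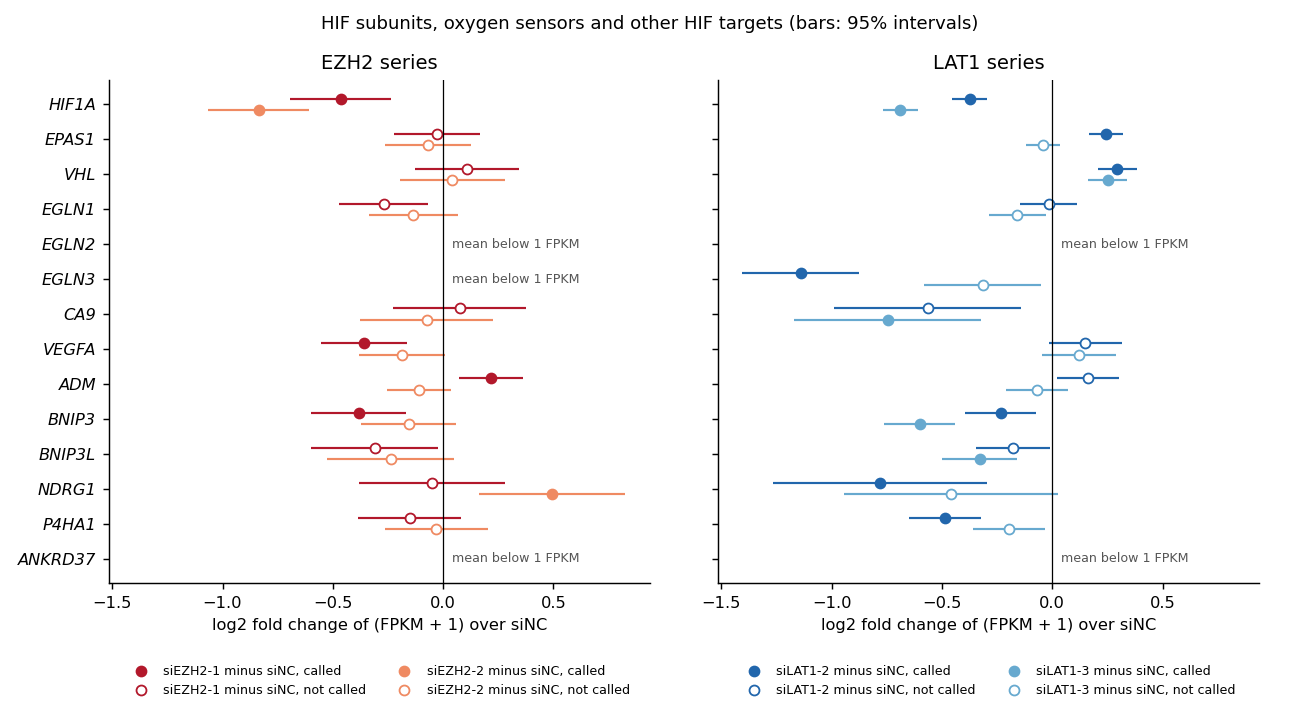
Log2 fold change of FPKM + 1 over siNC (horizontal axis) with its 95% interval for each siRNA and each HIF subunit, oxygen sensor and other HIF target, filled where called at an adjusted p under 0.05 and open where not, with the EZH2 series on the left and the LAT1 series on the right. HIF1A lies left of 0 with all 4 siRNAs, and EGLN3 lies at -1.14 with siLAT1-2 and -0.32 with siLAT1-3.

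Within a series the siRNAs differed from each other in some members. In the EZH2 series 7 of 34 members were called for siEZH2-2 minus siEZH2-1, 2 higher and 5 lower, where 16.3% of all genes were called (7.4% higher and 8.86% lower). Of these calls 3 (SLC2A3, PFKP and PFKFB3) held with every library left out in turn. The count was 3 when siEZH2-1 replicate 2 was left out and 4 when siEZH2-1 replicate 1 or either siEZH2-2 library was, with no share of all genes given for these fits. In the LAT1 series 9 of 36 were called for siLAT1-3 minus siLAT1-2, 2 higher and 7 lower, where 25.5% of all genes were called (12.4% higher and 13.1% lower), and 7 held (HIF1A, EPAS1, EGLN3, GPI, PFKL, TPI1 and BNIP3). SLC7A5 itself was higher with siLAT1-3 than with siLAT1-2 (log2 0.36, adjusted p = 0.000803), and in the EZH2 series higher with siEZH2-2 than with siEZH2-1 (log2 1.65, adjusted p = 8.66e-05). Its part in these differences was not tested. EZH2 did not differ between siEZH2-2 and siEZH2-1 beyond the test (log2 -0.14, 95% interval -0.30 to 0.02, adjusted p = 0.223).

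The 2 series share no library, and 34 members were tested in both. Called by the mean of both siRNAs in the same direction were 6 of the 34 (17.6%), where 15.7% of the 10804 genes tested in both series were: HIF1A, SLC2A1, LDHA and BNIP3 lower, PFKL and SLC2A3 higher. They were 46.2% of the 13 members called with siEZH2 and 27.3% of the 22 members called with siLAT1 among these 34. PGAM1 was called in opposite directions. HIF1A, SLC2A1 and LDHA were lower and PFKL was higher with each of the 4 siRNAs, 4 of 34 members, where 6.73% of genes were called the same way with all of them. The 17.6% was close to the 15.7% over all genes, and a count of 4 is too small to read as an excess over 6.73%. With siEZH2-1 the calls of HIF1A and LDHA did not hold with every library left out in turn.

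The siNC groups of the series differed in level for some members, in tables that were normalized separately, and the difference was not tested. EGLN3 averaged 13.6 FPKM in siNC of the LAT1 series and 0.005 in siNC of the EZH2 series, and ALDOC 10.6 and 0.125. BNIP3 averaged 37.7 and 2.23 FPKM, HIF1A 132 and 32.5, and EPAS1 21.1 and 4.25. SLC2A3 went the other way, at 1.96 FPKM in siNC of the LAT1 series and 7.64 in siNC of the EZH2 series. These 6 were the only members of 36 at 1 FPKM or more in either siNC that differed by more than 1 on the log2 scale (16.7%), where 10.9% of 12423 genes did. Some enzymes were close, with TPI1 at 397 and 384 FPKM, GPI at 56.1 and 55.1, and PGK1 at 180 and 185. Other abundant enzymes were farther apart, with ENO1 at 963 and 522 FPKM, ALDOA at 321 and 223, and PFKP at 62.8 and 111.

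**Figure D5:**
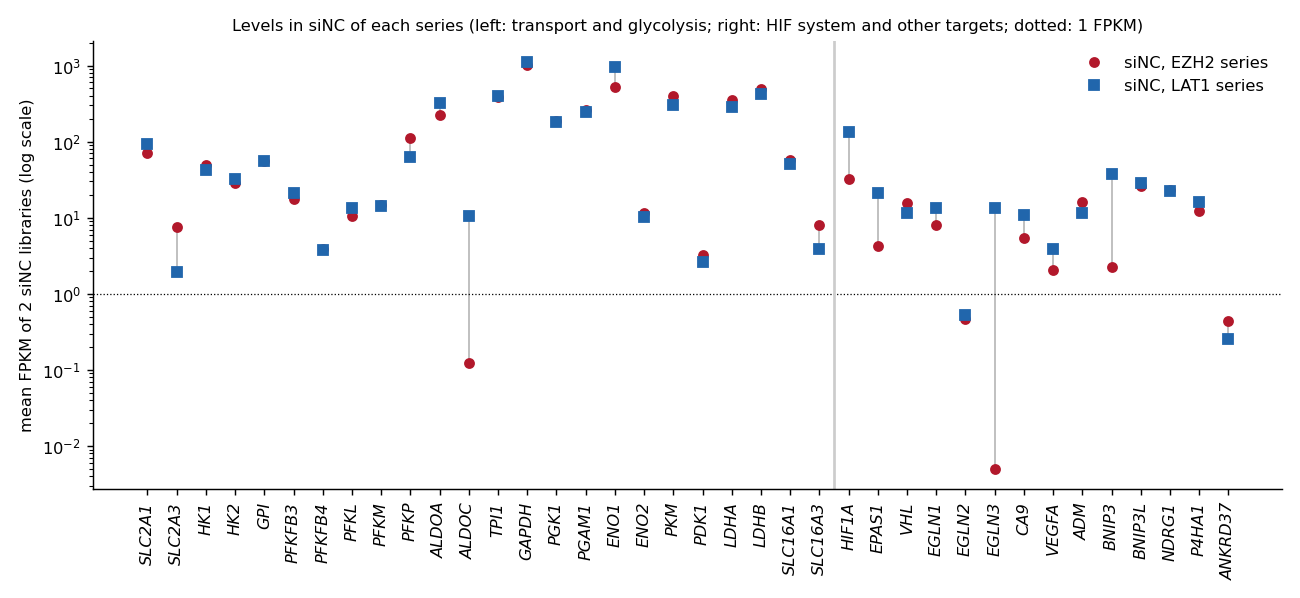
Mean FPKM of the 2 siNC libraries of each series for the members (log axis), with circles for the EZH2 series, squares for the LAT1 series and a dotted line at 1 FPKM. The markers stand far apart for EGLN3, ALDOC and BNIP3 and close together for GPI, PGK1 and TPI1.

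Other genes of these pathways were counted from 4 lists. Of 15 further HIF subunits and regulators 13 were tested in each series, and 2 were called higher and 2 lower with siEZH2, and 1 higher and 4 lower with siLAT1. These shares of 30.8% and 38.5% were close to those of all genes, 30% and 34.5%. CITED2, which competes with HIF for its coactivators, averaged 11.8 FPKM with siEZH2-1 and 17.1 with siEZH2-2, against 28.5 with siNC (log2 -0.96, adjusted p = 0.000272), and 37.8 with siLAT1-2 and 31.9 with siLAT1-3, against 46.3 with siNC (log2 -0.40, adjusted p = 0.000445). SIAH2, a ubiquitin ligase for the EGLN enzymes, averaged 12.5 and 11.8 FPKM with siEZH2-1 and siEZH2-2, against 7.96 with siNC (log2 0.56, adjusted p = 0.00145), and 14.3 and 11.7 with siLAT1-2 and siLAT1-3, against 8.64 with siNC (log2 0.53, adjusted p = 0.000222). ARNT averaged 6.28 FPKM with siLAT1-2 and 10.3 with siLAT1-3, against 10.8 with siNC (log2 -0.38 and adjusted p = 0.00122 by the mean, against 0.327 when the siRNAs were pooled as 1 group). CUL2, the cullin of the VHL ligase, fell with siEZH2 (log2 -0.37, adjusted p = 0.00483; 0.182 pooled). These calls held with every library left out in turn, unlike those of OS9 with siEZH2 (log2 0.17, adjusted p = 0.0459, and 0.0586 to 0.295 with a library left out) and CREBBP with siLAT1 (log2 -0.15, adjusted p = 0.0357, and 0.0649 to 0.178 without any library but siLAT1-3 replicate 1).

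Of the 34 further genes commonly raised by hypoxia that were found, 26 were tested with siEZH2, 5 higher and 10 lower, and 28 with siLAT1, 3 higher and 8 lower. Called were thus 57.7% with siEZH2, against 30% of all genes, and 39.3% with siLAT1, near the 34.5% of all genes. This list too was chosen with earlier results of these data known. With every library left out in turn 1 of the 15 calls held with siEZH2 (LOXL2) and 4 of the 11 with siLAT1, PLOD2, LOXL2 and IGFBP3 among them. How often calls of all genes held is not given here, so these counts cannot be compared with other genes. LOXL2, a collagen crosslinking enzyme, averaged 3.51 and 3.56 FPKM with siEZH2-1 and siEZH2-2, against 5.00 with siNC (log2 -0.41, adjusted p = 0.00688), and 20.7 and 18.7 with siLAT1-2 and siLAT1-3, against 23.8 with siNC (log2 -0.26, adjusted p = 0.00109). PLOD2, a collagen lysyl hydroxylase, fell with siEZH2 (log2 -0.44, adjusted p = 0.0146, and 0.103 without siNC replicate 1) and with siLAT1 (log2 -0.45, adjusted p = 0.000546), and pooling the siRNAs as 1 group ended both calls (adjusted p = 0.128 and 0.114). LOX, a related crosslinking enzyme, fell with siLAT1 (log2 -0.61, adjusted p = 0.0132, and 0.085 without siNC replicate 1), and IGFBP3, which binds insulin-like growth factors, rose (log2 0.40, adjusted p = 0.00439). RAB20, a small GTPase, fell with siEZH2 (log2 -0.37, adjusted p = 0.015, and 0.0865 without siNC replicate 2). P4HA2, ERO1L and GYS1 rose with siEZH2 (log2 0.35, 0.34 and 0.30, adjusted p = 0.00534, 0.017 and 0.0117). P4HA2 was lost without siNC replicate 1 (adjusted p = 0.0521), as was GYS1 (0.0982), and ERO1L without siNC replicate 2 (0.0975). GYS1 and ZNF395 rose with siLAT1 (log2 0.22 and 0.15, adjusted p = 0.0174 and 0.0436). Without siNC replicate 2 GYS1 had an adjusted p of 0.133, and ZNF395 had 0.065 to 0.199 without any library but siLAT1-3 replicate 1. Pooling also ended the calls of RAB20 (adjusted p = 0.055), ERO1L (0.246) and GYS1 (0.091) with siEZH2, and of GYS1 (0.0633) and ZNF395 (0.306) with siLAT1.

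Of 39 further glycolytic, gluconeogenic and pyruvate genes found, 22 were tested with siEZH2, 2 higher and 4 lower, and 23 with siLAT1, 1 higher and 3 lower. These shares of 27.3% and 17.4% did not exceed those of all genes, 30% and 34.5%. PCK2, the mitochondrial phosphoenolpyruvate carboxykinase, rose in both series: 8.08 FPKM with siEZH2-1 and 6.32 with siEZH2-2, against 4.86 with siNC (log2 0.48, adjusted p = 0.00366, but 0.0606 with both siRNAs pooled as 1 group), and 7.81 with siLAT1-2 and 7.29 with siLAT1-3, against 4.53 with siNC (log2 0.63, adjusted p = 0.00156). PDHX, a structural protein of the pyruvate dehydrogenase complex, averaged 10.9 FPKM with siEZH2-1 and 29.5 with siEZH2-2, against 29.8 with siNC, so its call by the mean (log2 -0.69, adjusted p = 0.000525; 0.356 pooled) rested on siEZH2-1. PDP2, a pyruvate dehydrogenase phosphatase, fell with siEZH2 (log2 -0.52, adjusted p = 0.00562). PGM2 was lower with siEZH2 and with siLAT1 (log2 -0.27 and -0.18, adjusted p = 0.0128 and 0.00551), and without siNC replicate 1 its adjusted p was 0.107 and 0.0559. MPC2, a subunit of the mitochondrial pyruvate carrier, had log2 0.21 with siEZH2 (adjusted p = 0.0317, and 0.0654 to 0.151 without any library but siEZH2-2 replicate 2). With siLAT1 GPD1L had log2 -0.30 (adjusted p = 0.00839, and 0.0736 without siNC replicate 1). PDP1, another phosphatase of the complex, had log2 -0.16 with siLAT1 (adjusted p = 0.00974, and 0.0728 without siNC replicate 1 or 0.0578 without siNC replicate 2). Pooling also ended the calls of PGM2 (adjusted p = 0.0759) and MPC2 (0.169) with siEZH2, and of PGM2 (0.133) and PDP1 (0.613) with siLAT1.

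In the pentose phosphate pathway, which branches from glycolysis at glucose 6-phosphate, 11 of 12 genes were tested with siEZH2, 1 higher and 1 lower, and 10 with siLAT1, 1 higher and 2 lower. At 18.2% and 30% these shares did not exceed those of all genes, 30% and 34.5%. RPIA, the ribose 5-phosphate isomerase, rose in both series, at 27.3 FPKM with siEZH2-1 and 21.3 with siEZH2-2, against 18.5 with siNC (log2 0.37, adjusted p = 0.00491, but 0.118 with both siRNAs pooled as 1 group), and at 22.8 with siLAT1-2 and 25.2 with siLAT1-3, against 16.5 with siNC (log2 0.51, adjusted p = 0.000361). PGD had log2 -0.14 with siLAT1 (adjusted p = 0.00495, and 0.0539 without siNC replicate 2) and PRPS1 -0.19 with siEZH2 (adjusted p = 0.029, and 0.0593 to 0.155 without any library but siEZH2-2 replicate 1, or 0.533 pooled).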

How the data were processed

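Per the labels, total RNA of KYSE510 cells was sequenced in 12 libraries, and 2 CUT&Tag samples were not analysed here. The deposited tables hold 1 value per gene and library, written by the authors to 2 decimals, whose header names no unit. They are treated as FPKM because they are not whole, their columns sum to 245634 to 275399, and the low values of a gene step by amounts that depend on the gene. Trim Galore, STAR, Bowtie, Bowtie2, Picard and SEACR and the builds hg38 and hg19 are listed, without roles, in the submitters' processing notes. The counting program, gene lengths and strand setting are not given in the sources used here. Libraries were grouped by the labels, and for the siNC libraries of the LAT1 series, whose titles share a number, by their descriptions.

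Since the deposited values are FPKM and not counts, limma-trend (limma 3.58.1, R 4.3.3) was run on log2(FPKM + 1), in place of the count test planned for counts. Each table was fitted alone, over genes whose mean over its 6 columns reached 1 FPKM. Tests were two-sided with Benjamini-Hochberg adjustment over all genes tested, and a gene was called at an adjusted p under 0.05. Compared with siNC were each siRNA and the mean of both, and the siRNAs of a series were compared with each other. The fit was tested on simulated data. Exact permutation tests of single genes could not go below p = 0.0667 for 4 libraries against 2 or 0.333 for 2 against 2, and were not used. A pseudocount of 1 understates the changes of low genes.

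Depth was estimated from those steps in short noncoding RNA genes, 106 to 170 values per library. The depth was searched for a high share of values within 0.12 of a whole read. That share was 86.2% to 91.8%, and since the search raises it, it is not a check on the estimate. PGK1, TPI1 and ENO2 each have a second identifier listed at 0 in every library, and the expressed one was used. Named pseudogenes of the members summed to at most 0.764% of the FPKM of their gene, except for SLC2A3 in the LAT1 series (1.59%). PFKM overlaps SENP1, whose means over the libraries of the EZH2 and LAT1 series were 9.39 and 10.6 FPKM.

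Values in every library are given for members called by the mean with a log2 fold change of at least 0.4 in size, for members called between the siRNAs of a series with a difference of at least 0.6 in size, and for HIF1A, SLC2A1, LDHA and PFKL. From each pathway list up to 3 called genes per direction and series are named, those with the largest changes. A few genes that this rule covers are not reported here. The members and lists were chosen with earlier results of these data known. Alternatives were quantile normalization, columns rescaled to the same sum, a pseudocount of 0.1, no filter on low values, a filter at a mean of 5, replicate number as a block, both siRNAs pooled as 1 group, and each library left out. Figures were drawn with matplotlib 3.10.9.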

Additional observations from a re-analysis of the deposited data

Results flagged for a closer look

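For 16 values the effects of the siRNAs of a series, each against the same siNC libraries, differed by the limma test of the second siRNA minus the first. These were 7 of 34 members in the EZH2 series, where 16.3% of all genes were called. In the LAT1 series they were 9 of 36, where 25.5% of all genes were called. In the EZH2 series (siEZH2-2 minus siEZH2-1) these log2 differences were -0.37 for HIF1A (adjusted p = 0.0451), -0.56 for SLC2A3 (0.00872), -0.82 for PFKP (0.000658), 0.40 for ENO2 (0.0205), -0.53 for PFKFB3 (0.0017), -0.33 for ADM (0.0166) and 0.55 for NDRG1 (0.0427). The HIF1A difference was lost with any library left out (adjusted p = 0.0545 to 0.175). The NDRG1 difference was lost without siEZH2-1 replicate 2 (0.185), siEZH2-2 replicate 1 (0.135) or siEZH2-2 replicate 2 (0.0623). ENO2 was lost without siEZH2-1 replicate 1 (0.0825), siEZH2-1 replicate 2 (0.106) or siEZH2-2 replicate 1 (0.0779), and ADM without siEZH2-1 replicate 1 (0.0725), siEZH2-1 replicate 2 (0.105) or siEZH2-2 replicate 2 (0.0878).

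In the LAT1 series (siLAT1-3 minus siLAT1-2) they were -0.31 for HIF1A (adjusted p = 0.000869), -0.29 for EPAS1 (0.00117), 0.83 for EGLN3 (0.00247), -0.23 for GPI (0.00298), -0.30 for PFKL (0.0011), -0.94 for TPI1 (3.1e-05), -0.23 for ADM (0.0301), -0.37 for BNIP3 (0.00862) and 0.29 for P4HA1 (0.0226). P4HA1 was lost without siLAT1-2 replicate 2 (0.093) or siLAT1-3 replicate 2 (0.11), and ADM without siLAT1-2 replicate 1 (0.132), siLAT1-2 replicate 2 (0.0645) or siLAT1-3 replicate 1 (0.131).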

How the results depend on the processing

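Without the filter on low values the members called numbered 8 for the mean of siEZH2 minus siNC (13 in the report), 5 for siEZH2-1 (13), 6 for siEZH2-2 (10), 2 for siEZH2-2 minus siEZH2-1 (7), 12 for the mean of siLAT1 (23), 9 for siLAT1-2 (18) and 8 for siLAT1-3 (19). With both siRNAs pooled as 1 group they numbered 6 for siEZH2 and 6 for siLAT1. The cause of these differences was not tested. With each library left out in turn the counts ran from 9 to 12 for the mean of siEZH2, 4 to 13 for siEZH2-1, 6 to 11 for siEZH2-2, 3 to 6 for siEZH2-2 minus siEZH2-1, 9 to 24 for the mean of siLAT1, 10 to 20 for siLAT1-2, 9 to 19 for siLAT1-3 and 7 to 10 for siLAT1-3 minus siLAT1-2. The labels do not say that replicate numbers pair libraries, and deviations of same-numbered libraries correlated at -0.353, 0.355 and -0.339 in the EZH2 series and at 0.0177 to 0.0826 in the LAT1 series. With the replicate block the counts were 9, 8, 8 and 3 in the EZH2 series (mean, siEZH2-1, siEZH2-2, and siEZH2-2 minus siEZH2-1) and 23, 15, 16 and 9 for the same comparisons of the LAT1 series. With the siEZH2-2 numbers crossed in the block, a setting chosen after seeing the data, they were 18, 20, 17 and 13. For none of these alternatives is the share of all genes called given here. The counts therefore do not show whether the members gained or lost calls more often than other genes. LDHB changed sign after quantile normalization, to a log2 fold change of 0.0359 for the mean of siLAT1 and 0.0448 for siLAT1-2, in place of called falls. Of the values for single genes under an alternative, 1603 kept direction and side of the threshold, 483 lost their call and 2 changed sign. With 2 libraries per group, intervals rest on a spread shared by the 3 groups of a series, and values near 0 FPKM rest on few reads.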
